A study of Rattus norvegicus with 25 samples.

Results

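Gene expression in the esophageal epithelium was compared between 5 rats given the nitrosamine NMBA (N-nitrosomethylbenzylamine) with gamma-enriched tocopherol and 5 rats given NMBA with alpha-tocopherol. They were chosen by the titles of their arrays and are 10 of the 25 arrays of the series. All 25 rats were F344 males, and each array held the RNA of 1 rat. The other groups, of 5 rats each, received NMBA with delta-tocopherol, NMBA alone, or a normal diet without NMBA (Control). The dose, the route, the length of treatment, the age of the rats and the makeup of the gamma-enriched preparation are not stated in the sources used here. Both tocopherol groups therefore carried the carcinogen, and neither is an untreated state.

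Tocopherols are the fat-soluble phenols of vitamin E and stop the chain of lipid peroxidation by giving up a hydrogen atom. They differ in the methyl groups on their chromanol ring: alpha-tocopherol is fully methylated, and gamma-tocopherol lacks a methyl group beside the phenolic hydroxyl. The liver's alpha-tocopherol transfer protein, Ttpa, favours the alpha form, while cytochrome P450 enzymes of the Cyp4f family begin the breakdown of the side chain, chiefly of the other forms. NMBA is activated by cytochrome P450 enzymes, alkylates DNA in the rat esophagus and gives rise to squamous papillomas there. Gamma-enriched tocopherol and alpha-tocopherol formed the only pair of preparations compared here with a test, so p-values are adjusted over genes within that pair.

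The arrays were 1-colour Agilent slides of 8 arrays, and every value below is a log2 signal minus the 75th percentile of its array unless it is called a difference. Slide 2 held all 5 gamma-enriched rats and slide 1 all 5 alpha rats, so the groups share no slide and treatment and slide cannot be told apart from these 10 arrays. Delta rats 1 to 3 lay on slide 1 and delta rats 4 and 5 on slide 2, which gives the only group on both. Between 72.4% and 78.0% of spots were well above background in gamma-enriched rats, and between 77.0% and 79.8% in alpha rats. Markers of esophageal epithelium were present: Krt5, of the basal layer, averaged 1.87 ± 0.27 in gamma-enriched and 1.60 ± 0.23 in alpha rats. Krt13, of the layers above, averaged 4.70 ± 0.44 in gamma-enriched and 5.05 ± 0.26 in alpha rats (SD, n = 5 each). Skeletal muscle genes were also bright, with a mean of 0.66 to 2.84 per rat over 21 genes in gamma-enriched rats and 1.73 to 3.63 in alpha rats, so defining markers of muscle stood beside those of the labelled epithelium. In such bulk RNA, fewer cells of a type and less RNA per cell cannot be told apart.

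Of 12343 genes tested with limma, 209 (1.69%) differed at an adjusted p under 0.05, with 17 (0.138%) higher and 192 (1.56%) lower in gamma-enriched rats. The groups did not overlap in 183 of the 209, against 399 (3.23%) of all genes tested and 194 (1.78%) of those well above background on all 10 arrays. The calls were spread unevenly over signal. Among the 10913 genes well above background on all 10 arrays, 74 (0.678%) were called, 17 higher and 57 lower. Among the 1430 dim genes, which missed that mark on at least 1 array, 135 (9.44%) were called and all 135 were lower. The median difference over all genes was -0.11, so gamma-enriched arrays sat slightly low as a whole; after quantile normalization it was -0.05, and the calls then numbered 32 higher and 147 lower. Differences below are as fitted and are read against that shift.

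**Figure D1:**
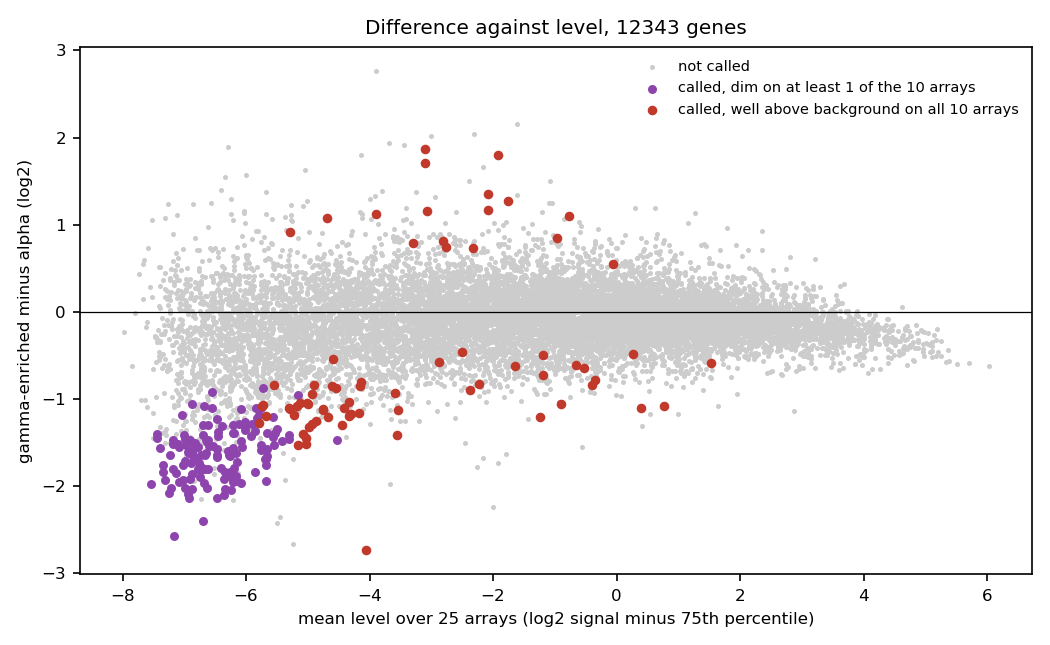
Each point is 1 of 12343 genes, with its mean level over the 25 arrays on the x axis and the log2 difference, gamma-enriched minus alpha, on the y axis. The 135 dim called genes crowd the low left corner below 0, while the 74 called genes that were well above background on all 10 arrays lie on both sides.

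The calls among brighter genes leaned on the dim ones. Both the adjustment and limma's moderation of the spread run over all genes together, and their parts were not separated. With only the 10913 bright genes tested, 10 were called: C1h19orf47, Defb24 and Stfa3l1 were higher, and Dusp1, Rfx2, Gadd45g, Lekr1, Odf1, Or13n4b and Ervfrd-1 were lower. By mean level over the 25 arrays, the 2469 genes of lowest signal held 2 of the rises and 168 of the falls. The other 9874 genes held 15 rises and 24 falls, and tested alone they gave 5 calls. With slide entered as a block, so that delta rats alone link the groups, 0 genes were called by limma at a lowest adjusted p of 0.631. Of the 12343 genes, 790 then had an unadjusted p under 0.05, against 1877 without the block, and chance alone gives a share of about 0.05. The blocked p-values given below are unadjusted, and none is a call. The block raised the median standard error of a gene's difference to 0.35, against 0.21 without it, so a gene that is lost under the block is not thereby shown to be unchanged. Of the 44 called genes named below, 7 were called whichever single rat was left out: Dusp1, Rfx2, Stfa3l1, C1h19orf47, Defb24, Or4a47 and Tnni3k. Or4a47 was well above background only on the 5 alpha arrays, the number needed for testing. That filter was not redone when a rat was left out, so the place of Or4a47 here is no support. Without alpha rat 5, 37 of the 44 were lost and 24 genes in all were called; without alpha rat 4, 0 of the 44 were lost and 650 genes were called. After quantile normalization the calls of Per1, Cfap36, Fabp6 and Cd79b were lost. With normexp background correction 17 of the 44 were lost: those 4 and Pals2, Or5ak22, Kif27, Ervfrd-1, Gipr, Socs3, Trdmt1, Ahr, Sgk2, Gast, Zfp609, Sslp1l1 and Tnni3k.

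The rises included single genes of several kinds: a protease inhibitor, beta-defensins, a glutathione S-transferase and the receptors Gipr and Ahr. No shared function was tested. Stfa3l1, a stefin of the cysteine protease inhibitors that abound in squamous epithelium, read -2.79, -3.02, -2.49, -1.92 and -2.25 in gamma-enriched rats, against -5.92, -4.22, -3.68, -4.11 and -3.86 in alpha rats. The lowest gamma-enriched rat stood above the highest alpha rat, and alpha rat 1 was low by itself. The difference was 1.86 ± 0.37 (SE), or 3.64-fold, at an adjusted p of 0.015, and it remained 1.47 without alpha rat 1 (adjusted p = 0.0432). The delta rats of slide 2 lay 1.11 above those of slide 1 for this gene, and the blocked difference was 0.76.

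Gstm6, a mu-class glutathione S-transferase, had the same shape. It read -1.54, -2.03, -1.15, -0.78 and -1.09 in gamma-enriched rats and -4.71, -2.59, -2.64, -2.67 and -2.98 in alpha rats. Alpha rat 1 again lay lowest, and the groups did not overlap. The difference was 1.80 ± 0.42 (adjusted p = 0.025), and it was 1.40 without alpha rat 1, where the call was lost. Delta rats of slide 2 were 1.0 above those of slide 1. Stefin A and mu-class transferase genes belong to families of close copies, and probe signal may be shared among them.

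Both beta-defensins that rose, secreted antimicrobial peptides of epithelia, were near a log2 difference of 1. Defb24 ran from -3.70 to -3.16 in gamma-enriched rats and from -5.09 to -4.31 in alpha rats, a difference of 1.13 ± 0.21 (adjusted p = 0.0143). Defb5 ran from -1.16 to -0.12 in gamma-enriched rats and from -2.45 to -1.23 in alpha rats, a difference of 1.11 ± 0.24 (adjusted p = 0.019). Neither gene's groups overlapped, and in delta rats slide 2 exceeded slide 1 by 0.61 for Defb24 and by 0.63 for Defb5, more than 50% of each difference.

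Gipr, the receptor for the gut hormone glucose-dependent insulinotropic polypeptide, differed with little slide shift in the delta rats. It read -2.17, -1.72, -1.98, -1.45 and -1.47 in gamma-enriched rats, against -3.23, -3.08, -2.70, -2.84 and -3.71 in alpha rats. Every gamma-enriched rat was above every alpha rat, by a mean of 1.35 ± 0.32 (adjusted p = 0.03). Slide 2 minus slide 1 was 0.11 in delta rats, and on slide 2 itself the gamma-enriched rats averaged 0.71 above the delta rats. The blocked difference was 1.25, with an unadjusted p of 0.022.

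Ahr, the aryl hydrocarbon receptor, a ligand-activated transcription factor that induces xenobiotic-metabolizing enzymes, was the one called member of its list. It read -4.52, -4.99, -4.73, -4.84 and -4.56 in gamma-enriched rats and -5.76, -5.91, -5.66, -4.99 and -5.92 in alpha rats. Alpha rat 4 came within rounding of the lowest gamma-enriched rat, and the other alpha rats were further below. The difference was 0.92 ± 0.19 (adjusted p = 0.0179), with 0.12 between slides in delta rats and 0.80 under the block; after normexp background correction the call was lost (adjusted p = 0.184). The other 16 tested genes of the AhR and xenobiotic P450 list were not called, and the list's median was -0.08 beside -0.11 for all genes.

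Slc38a9, the lysosomal amino acid sensor upstream of mTORC1, was the 1 called rise whose slide difference in delta rats ran the other way. It read -2.85, -2.78, -2.92, -2.93 and -2.68 in gamma-enriched rats, against -3.82, -3.82, -3.17, -3.20 and -4.09 in alpha rats. The groups were apart, by 0.79 ± 0.18 (adjusted p = 0.0232), and delta rats of slide 2 were 0.27 below those of slide 1. The blocked difference was 1.06.

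The remaining named rises without overlap ran from 0.74 to 1.17. C1h19orf47, whose role is not given here, differed by 1.17 ± 0.21 (adjusted p = 0.00998), and Neurl1, an E3 ubiquitin ligase that acts on Notch ligands, by 1.16 ± 0.27 (adjusted p = 0.0247). For each, another kept probe of the same gene showed almost nothing, at 0.04 for C1h19orf47 and -0.02 for Neurl1, so these values rest on 1 of 2 probes. Sgk2, a kinase of the serum- and glucocorticoid-regulated family, differed by 0.85 ± 0.19 (adjusted p = 0.0214). Fabp6, a bile acid binding protein best known from the ileum, differed by 0.81 ± 0.20 and Gast, the precursor of gastrin, by 0.75 ± 0.19, with adjusted p of 0.0394 and 0.0468. Zfp609, a zinc finger protein gene chosen after its values were seen, differed by 0.74 ± 0.17 (adjusted p = 0.0246). In delta rats slide 2 exceeded slide 1 for each of these 6 genes, by 0.68 for C1h19orf47, 0.23 for Neurl1, 0.33 for Sgk2, 0.48 for Fabp6, 0.37 for Gast and 0.63 for Zfp609.

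Called rises whose groups overlapped were Zbtb16, Socs3, Trdmt1 and Il33, the last 3 of which were chosen after their values were seen. Socs3, the feedback inhibitor of cytokine signalling through STAT3, ran from -2.04 to -1.21 in gamma-enriched rats and from -3.59 to -1.94 in alpha rats, a difference of 1.27 ± 0.31 (adjusted p = 0.0311). Il33, an alarmin cytokine held in the nuclei of epithelial cells, ran from -0.16 to 0.28 in gamma-enriched rats and from -0.72 to -0.08 in alpha rats, a difference of 0.55 ± 0.12 (adjusted p = 0.019). Trdmt1, which methylates transfer RNA, differed by 1.07 ± 0.23 (adjusted p = 0.019). The slide difference in delta rats was small for Socs3, Il33 and Trdmt1, at 0.12, 0.07 and 0.08.

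Zbtb16, a zinc finger repressor that glucocorticoids strongly induce, read -2.07, -1.42, -4.10, -2.27 and -1.92 in gamma-enriched rats and -3.02, -4.39, -4.30, -5.46 and -3.20 in alpha rats. Gamma-enriched rat 3 lay among the alpha rats, and the other 4 were above them. The difference was 1.71 ± 0.42 (adjusted p = 0.0366). Delta rats ran from -2.96 to -2.37 on slide 1 and read -2.25 and -1.94 on slide 2, above every alpha rat. Fkbp5, another glucocorticoid target, leaned the same way at 1.19 ± 0.36 but was not called (adjusted p = 0.0952). It was named outside the rule for naming genes, from a list in which 15 of 20 members were below 0.

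**Figure D2:**
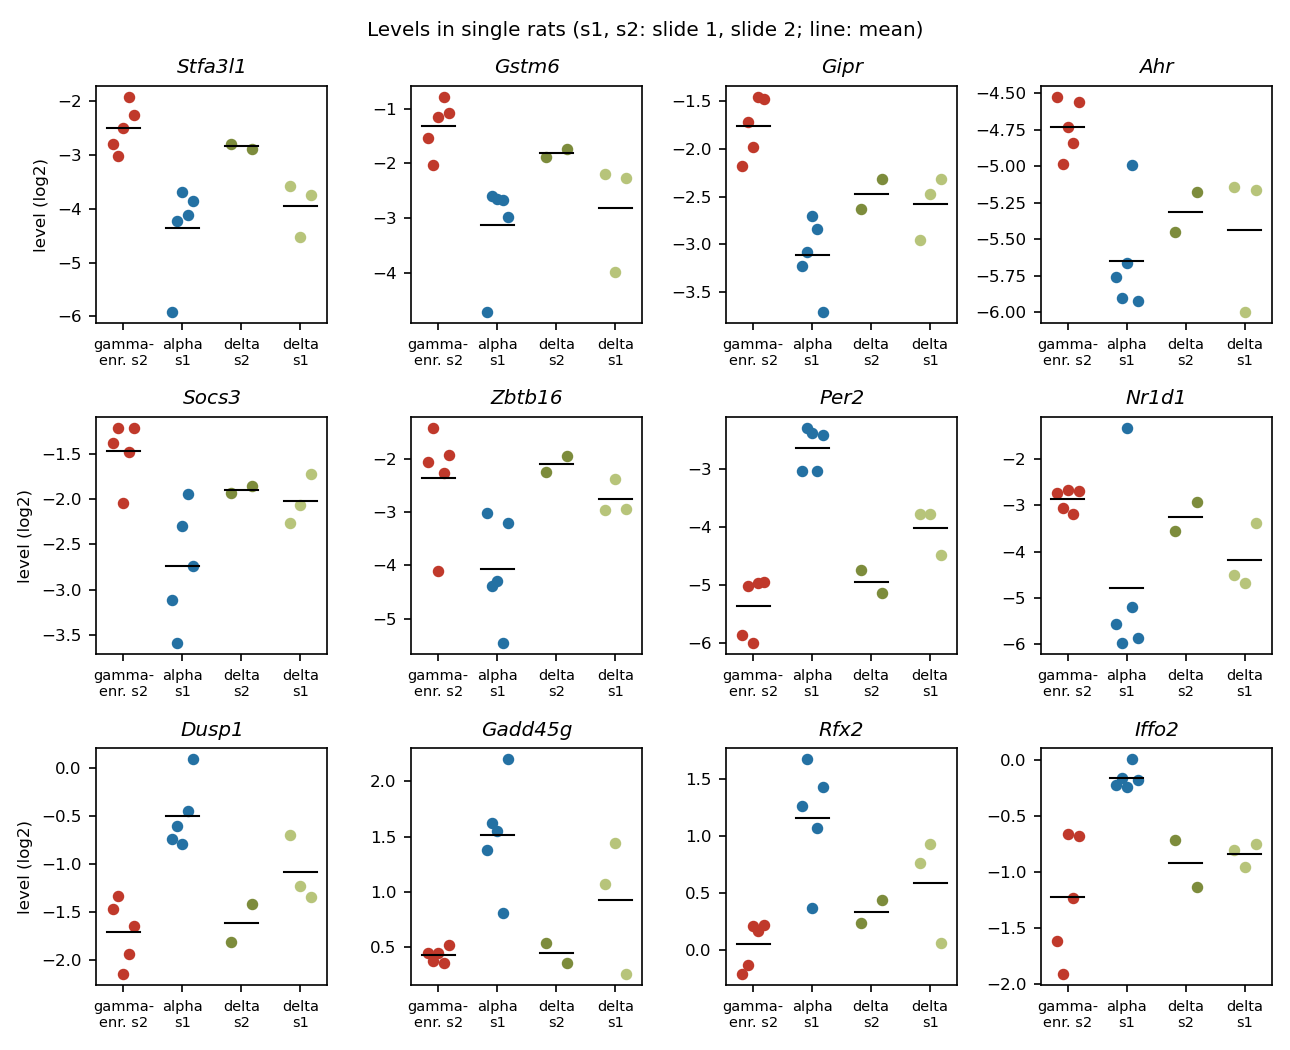
Each panel plots the level of 1 gene (log2 signal minus the array's 75th percentile, y axis) in single rats, with gamma-enriched rats on slide 2, alpha rats on slide 1, and delta rats split by slide; the line is the mean. Gipr shows little slide shift in the delta rats, whereas for Stfa3l1 and Gstm6 the delta rats of slide 2 also lie high, and Nr1d1 shows alpha rat 3 far above the other alpha rats.

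The falls of highest signal included stress-response and signalling genes. Dusp1, the phosphatase that switches off MAP kinases and is itself induced within minutes by stress and growth factors, read -1.46, -1.33, -2.14, -1.94 and -1.64 in gamma-enriched rats. In alpha rats it read -0.74, -0.60, -0.79, -0.45 and 0.10. Every gamma-enriched rat was below every alpha rat, and the fitted difference was -1.21 ± 0.20, an alpha level 2.31 times the gamma-enriched one (adjusted p = 0.0097). Leaving out any single rat kept the call, with adjusted p from 0.00981 to 0.0384. Slide 2 minus slide 1 was -0.52 in delta rats, gamma-enriched minus delta on slide 2 was -0.09, and the blocked difference was -0.68 with an unadjusted p of 0.07.

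Gadd45g, a stress-induced protein that binds and activates the MAP kinase kinase kinase Mekk4, was nearly constant in gamma-enriched rats at 0.44, 0.38, 0.45, 0.36 and 0.52. It was higher and more spread in alpha rats, at 1.38, 1.62, 1.55, 0.81 and 2.20. The difference was -1.08 ± 0.22 (adjusted p = 0.0153) and fell short of the threshold without alpha rat 5 (adjusted p = 0.0562). Delta rats 1 and 2 read 1.07 and 1.44, whereas delta rat 3, on the same slide, read 0.26 and delta rats 4 and 5 of slide 2 read 0.54 and 0.36. Gadd45g and the next 5 genes were chosen for description after their values were seen, as called falls of higher signal.

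The start regions of Dusp1 and Gadd45g are shown with that of Per2, the clock gene with the largest fall, because all 3 genes fell and were well above background on all 10 arrays. They are the 250 bases before the RefSeq start in GRCr8, 5′ to 3′ on the gene's strand; capitals mark the cyclic AMP response element TGACGTCA and the E-box CACGTG, searched on both strands, where each reads the same.
Dusp1: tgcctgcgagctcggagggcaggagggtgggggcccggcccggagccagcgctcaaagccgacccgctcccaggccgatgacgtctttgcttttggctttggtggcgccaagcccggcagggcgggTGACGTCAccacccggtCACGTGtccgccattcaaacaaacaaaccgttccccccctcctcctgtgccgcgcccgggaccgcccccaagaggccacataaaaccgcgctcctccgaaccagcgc
Gadd45g: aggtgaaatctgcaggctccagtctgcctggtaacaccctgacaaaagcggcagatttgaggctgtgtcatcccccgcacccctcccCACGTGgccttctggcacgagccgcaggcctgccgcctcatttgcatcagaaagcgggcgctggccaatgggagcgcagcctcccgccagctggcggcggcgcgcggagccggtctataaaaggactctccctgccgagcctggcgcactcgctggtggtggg
Per2: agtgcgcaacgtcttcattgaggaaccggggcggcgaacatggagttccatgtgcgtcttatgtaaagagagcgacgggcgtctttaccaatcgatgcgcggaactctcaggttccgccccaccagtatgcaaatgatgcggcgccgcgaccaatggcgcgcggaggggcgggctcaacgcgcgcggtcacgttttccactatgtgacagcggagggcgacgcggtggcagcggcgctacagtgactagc
The Dusp1 window lies at chr10:17184603-17184852 on the plus strand and holds TGACGTCA starting 124 bases and CACGTG starting 107 bases before the start. The Gadd45g window, chr17:13530352-13530601 on the minus strand, holds CACGTG starting 163 bases before it. In the Per2 window, chr9:99496994-99497243 on the minus strand, neither run of letters was found. Of 33469 RefSeq windows of this length, 1.59% hold TGACGTCA and 5.59% hold CACGTG, so these are matches of letters and not mapped binding sites.

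Rfx2, a winged-helix transcription factor known for switching on genes of motile cilia, read -0.21, -0.13, 0.22, 0.17 and 0.22 in gamma-enriched rats, against 1.27, 1.68, 0.37, 1.07 and 1.43 in alpha rats. The groups did not overlap, although alpha rat 3 came close. The difference was -1.11 ± 0.20 (adjusted p = 0.00998), the call held without any 1 rat, and the blocked difference was -0.86 with an unadjusted p of 0.029. Rfx2 averaged 0.18 in NMBA rats and 0.09 in Control rats, so the alpha rats were the high group of the series for this gene.

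Iffo2, an intermediate filament family member, ran from -1.91 to -0.66 in gamma-enriched rats and only from -0.24 to 0.01 in alpha rats. Its difference was -1.06 ± 0.22 (adjusted p = 0.016), with -0.09 between slides in delta rats and -0.97 under the block. Map4k4, a kinase upstream of JNK, differed by -0.83 ± 0.20 (adjusted p = 0.0298), but its other kept probe gave 0.11. Pals2, a scaffold of membrane polarity complexes, differed by -0.79 ± 0.19 (adjusted p = 0.0333), and the delta slides ran the other way for it, at 0.18. Cfap36, a cilia- and flagella-associated protein, differed by -0.58 ± 0.15 (adjusted p = 0.0436), with 0.04 between the delta slides.

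Rasd1, the dexamethasone-induced Ras protein, and Apold1, an endothelial early-response gene, also fell, with groups that overlapped, and were chosen after their values were seen. Rasd1 differed by -1.41 ± 0.31 (adjusted p = 0.019) and Apold1 by -1.30 ± 0.28 (adjusted p = 0.0188). In delta rats slide 2 minus slide 1 was -0.72 for Rasd1 and -0.69 for Apold1. Both calls were lost without alpha rat 1 or alpha rat 5.

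The immediate early list, genes switched on within minutes of a stimulus, had 28 tested members, of which 24 were lower and Dusp1 alone was called. Its median was -0.34, beside -0.11 for all genes, and -0.22 under the block. Fos, a subunit of the AP-1 factor, read -2.51, -2.91, -2.01, -1.88 and -2.53 in gamma-enriched rats, against -1.49, -1.92, -2.72, 1.41 and 1.03 in alpha rats. Alpha rats 4 and 5 were far above the other 3, and the difference of -1.63 ± 0.54 was not called (adjusted p = 0.138). Egr3, an early growth response factor, did not overlap between groups but was not called either, at -0.98 ± 0.31 (adjusted p = 0.117). Fos and Egr3 were named outside the rule for naming genes.

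Per2, a repressor in the core feedback loop of the circadian clock, had the largest fall among the genes well above background on all 10 arrays. It read -5.86, -5.03, -6.01, -4.96 and -4.95 in gamma-enriched rats, against -3.03, -2.28, -2.38, -3.03 and -2.41 in alpha rats. The groups were almost 2 log2 units apart at their nearest rats, and the difference was -2.73 ± 0.64, an alpha level 6.64 times the gamma-enriched one (adjusted p = 0.0264). Delta rats read -3.78, -3.77 and -4.48 on slide 1 and -4.75 and -5.15 on slide 2. Their mean of -4.38 lay between the other 2 means, though delta rat 5 lay within the gamma-enriched range. Per2 also ran widely within the remaining groups, from -6.47 to -1.69 in NMBA rats and from -5.26 to -2.69 in Control rats. The blocked difference was -1.80 (unadjusted p = 0.13), and leaving out any of 7 of the 10 rats moved the adjusted p past the threshold, up to 0.0793.

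Per1, its partner repressor, was dim, being well above background on 1 gamma-enriched and 4 alpha arrays, and reached the number of arrays needed for testing only with the alpha arrays counted. Its fitted difference was -1.05 ± 0.23, and for that reason its adjusted p of 0.019 is no support. The call was lost at -0.56 with normexp background correction (adjusted p = 0.0518) and at -0.72 after quantile normalization (adjusted p = 0.182). Nr1d1, the clock repressor REV-ERB alpha, is given for contrast and was chosen after its values were seen. It read -2.74, -3.06, -2.68, -3.19 and -2.69 in gamma-enriched rats, against -5.55, -5.98, -1.32, -5.20 and -5.86 in alpha rats. Alpha rat 3 stood above all gamma-enriched rats while the other 4 alpha rats stood far below, and the difference of 1.91 ± 0.72 was not called (adjusted p = 0.207). The same rat was highest of the alpha group for Ciart, a clock repressor, at -0.15 against -4.17 to -3.41 in the others, and for the clock output gene Dbp at 3.66. Over the 14 tested clock genes, 0 were called higher and 2 lower, beside 1.69% of all genes called, with a median of -0.22. The 2 were Per2 and Per1, and Per1 is counted only because the alpha arrays brought it into the test. The time of day at which the tissue was taken is not stated in the sources used here.

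The glucocorticoid-induced list held called members in both directions. Of 20 tested genes, Zbtb16 was higher, and Dusp1 and Per1, both described above, were lower; the list median was -0.36, and 15 members were below 0. Beside these 3 of 20 stand 1.69% of all genes called. Per1 was tested only with the alpha arrays counted, and Zbtb16 and Dusp1 went in opposite directions.

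The dim called genes all fell. These 135 genes were lower by a median log2 difference of -1.58, or -0.69 with normexp background correction. Of them, 77 were well above background on 0 gamma-enriched arrays, and 105 were so on all 5 alpha arrays. A gene was tested if well above background on at least 5 of the 25 arrays, and 45 of the 135 reached that number only with the alpha arrays counted, against 237 of all 1430 dim genes; the filter thus favoured genes high in alpha rats. Olfactory receptor genes made up 48 of them; in all, 59 of 174 olfactory receptor genes tested (33.9%) were called lower and 0 higher, with a median difference of -0.95. Beside this stand 9.44% of all dim genes and 6.80% of the 2469 genes of lowest signal called lower; the family was singled out after its values were seen. For the 174 receptors the median was also -0.23 between slides in delta rats and -1.38 for Control rat 1 against the other Controls. These receptors belong to the nasal epithelium, form a large family of close copies, and had a median level of -6.19 here, among the lowest on the arrays.

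The 4 dim genes with the largest falls were Or4a47, Sslp1l1, Or11g24 and Tnni3k. Or4a47, an olfactory receptor, read -8.01, -9.06, -8.33, -8.61 and -8.74 in gamma-enriched rats, against -5.83, -6.33, -6.28, -7.10 and -4.34 in alpha rats. None of the gamma-enriched arrays was well above background, so the fold is a bound: alpha was at least 3.44-fold higher, with the dim side set per array to the lowest signal well above background or the probe's own if higher. Of the 25 arrays, those 5 of the alpha group were the only ones to measure Or4a47, so it was tested only because it was high there, and its p is not given as support. The bound was at least 3.50-fold for Sslp1l1, named for a secreted protein of seminal vesicles, which 4 of 5 alpha arrays measured. Sslp1l1 also needed the alpha arrays to be tested, so its p is not given as support either. The bound was at least 4.08-fold for Or11g24 (adjusted p = 0.0153) and at least 2.90-fold for Tnni3k, a heart muscle kinase, measured on 4 of 5 alpha arrays (adjusted p = 0.0097). Cd79b, a part of the B cell receptor complex, was the one called gene of the B and plasma cell list of 7, with alpha at least 2.36-fold higher on 3 of 5 arrays (adjusted p = 0.0372). These bounds hold only for the processed signal. With normexp background correction the log2 differences were -1.03 for Or4a47, -0.79 for Sslp1l1 and -0.78 for Or11g24. They were -0.68 for Tnni3k and -0.57 for Cd79b, and each of these differences is smaller than the gene's bound.

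The remaining named falls were genes of low signal that were well above background on all 10 arrays. Odf1, of the outer dense fibres of sperm tails, ran from -6.43 to -5.62 in gamma-enriched rats and from -5.11 to -4.26 in alpha rats, a difference of -1.53 ± 0.30 (adjusted p = 0.0143). Nkapl, Tsga10ip and Kif27, known from spermatogenesis or cilia, differed by -1.44, -1.21 and -1.20. The olfactory receptors Or13n4b, Or2n1h, Or8s2, Or5ak22 and Or10a3 differed by -1.52 to -1.25, and Ervfrd-1, an envelope gene of retroviral origin, by -1.19. Lekr1, chosen after its values were seen, differed by -0.81 ± 0.16 (adjusted p = 0.0143), but its other kept probe gave -0.2. For Odf1, Nkapl, Tsga10ip, Kif27 and Ervfrd-1, Control rat 1, the only Control on slide 2, was also below the other Controls, with differences from -1.96 to -1.10.

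The dim called genes were also low on the delta and Control arrays of slide 2. The median level of the 135 dim called genes was -7.84 to -7.28 on the gamma-enriched arrays, against -6.31 to -5.66 on the alpha arrays. It was -7.05 and -6.98 on the 2 delta arrays of slide 2, against -6.74 to -5.93 on the 3 of slide 1. It was -7.80 in Control rat 1 on slide 2, against -6.08 to -5.85 in Control rats 2 to 5 on slide 3. The gamma-enriched arrays were low by the choice of these genes. That leaves the 2 delta arrays and Control rat 1, which is set against slide 3 and not slide 1. The part of slide was not tested. Negative-control spots overlapped between the groups, at -9.38 to -8.26 on gamma-enriched and -9.25 to -8.40 on alpha arrays. They were nonetheless lower on slide 2 in delta rats, at -9.09 and -8.72 against -8.51 to -8.41 on slide 1, and in Control rat 1, at -8.96 against -8.40 to -8.24 in the other Controls.

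**Figure D3:**
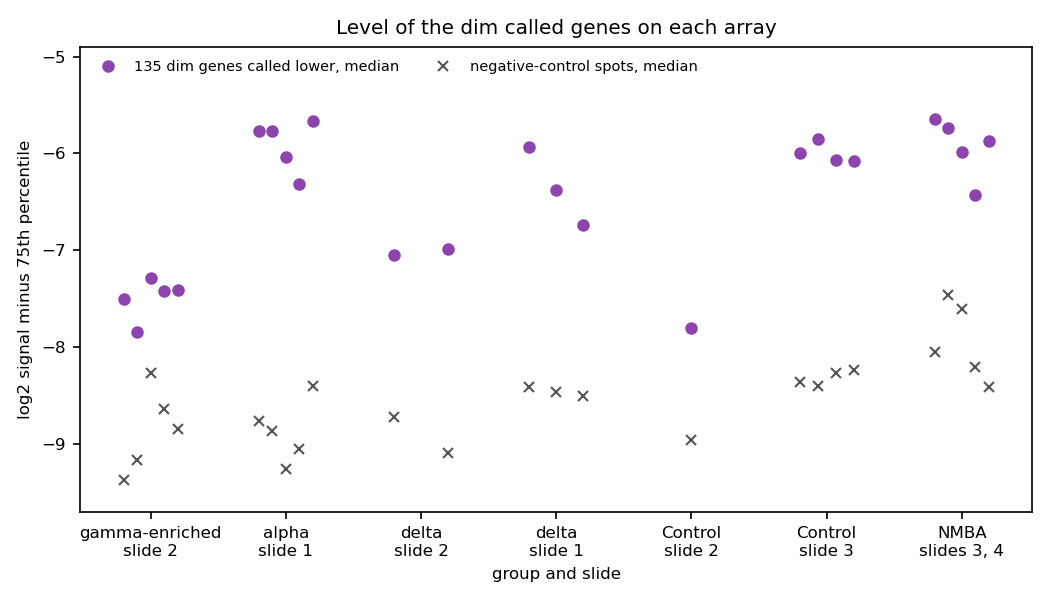
Each column is a group on a slide and each point an array; filled circles give the median level of the 135 dim genes called lower and crosses the median of the negative-control spots (log2 signal minus the array's 75th percentile, y axis). The circles of slide 2 lie at -6.98 or below in gamma-enriched, delta and Control arrays, and those of the other slides at -6.74 or above.

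For the 135 dim falls, delta rats of slide 2 were lower than those of slide 1 in 129 genes, at a median difference of -0.72, and by at least 50% of the fitted difference in 63. Control rat 1 was lower than the other Controls in 133 of them, at a median difference of -1.85. For the 57 bright falls the delta median was -0.28, with 50 genes of the same sign and 8 reaching 50%. Control rat 1 was lower than the other Controls in 43 of the 57, at a median difference of -1.04. For the 17 bright rises the delta median was 0.37, with 16 of the same sign and 8 reaching 50%, while Control rat 1 was higher in 9 of the 17 and the median was 0.01. Over all 12343 genes the delta median was 0.02 and the sign matched in 5664. For Control rat 1 against the other Controls the median over all genes was -0.13, and the sign matched in 8337. All 209 called differences kept their sign under the slide block, at a median of 0.76 for the rises, -0.69 for the bright falls and -0.83 for the dim falls. Of all genes tested, 9662 of 12343 kept it. The blocked difference is the fitted one less the delta rats' slide difference, so it adds no separate check. The part that slide has in any single gene was not tested, since 2 delta rats against 3 carry the whole link.

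**Figure D4:**
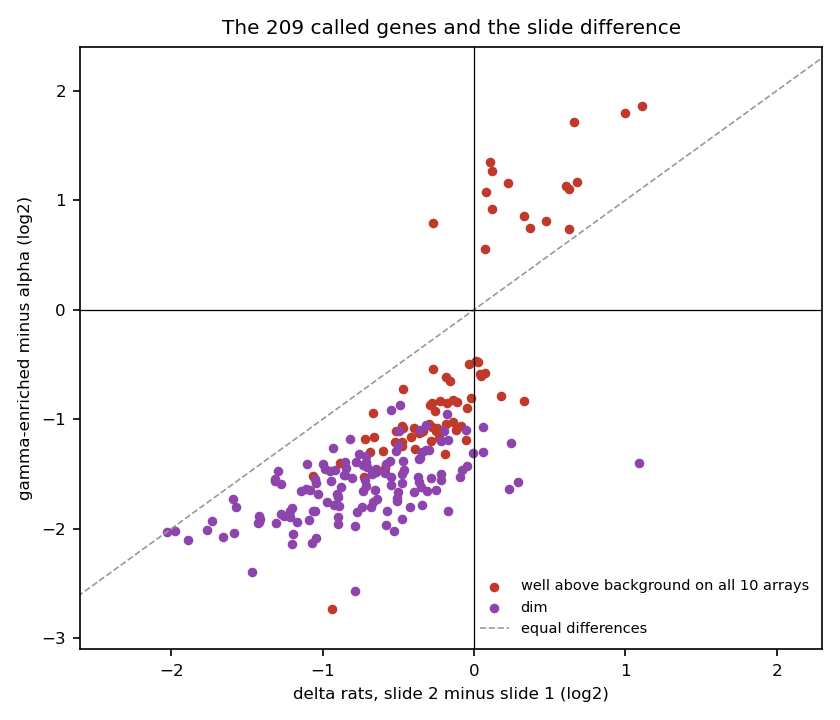
Each point is a called gene, with the delta rats' difference, slide 2 minus slide 1, on the x axis and the fitted difference, gamma-enriched minus alpha, on the y axis (both log2); the dashed line marks equal differences. Most dim genes lie left of 0 and toward the line, while some bright falls, such as Iffo2, lie near 0 on the x axis.

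Where the remaining groups lay also differed with signal. Among the 15 called rises outside the lowest-signal genes, the gamma-enriched mean was nearer than the alpha mean to the NMBA mean in 13, and to the Control mean in 14. Stfa3l1 averaged -2.50 in gamma-enriched and -4.36 in alpha rats, against -2.26 in NMBA and -2.90 in Control rats. For the 24 falls outside the lowest-signal genes the counts were 11 and 14. For the 168 low-signal falls they were 7 (4.2%) and 23 (13.7%), beside 39.9% and 37.2% of all 2469 genes of lowest signal. Over all genes outside the lowest-signal set the gamma-enriched mean was the nearer to NMBA in 41.1% and to Control in 45.0%. The NMBA rats shared no slide with either group, while the Control mean includes Control rat 1 of slide 2. These counts of group means carry no test.

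Vitamin E handling genes showed no called difference. Of 33 listed, 23 were tested and 0 were called by limma. Beside this stand 1.69% of all genes and 0.678% of those well above background on all 10 arrays. In the list, 3 had an unadjusted p under 0.05, and the median was -0.14. Ttpa averaged -3.72 ± 0.33 in gamma-enriched and -3.74 ± 0.26 in alpha rats, a difference of 0.02 with a 95% interval from -0.51 to 0.55. Scarb1, the scavenger receptor that takes up lipoprotein lipids and tocopherol, differed by -0.31 (interval -0.82 to 0.20). Cyp4f17 differed by -0.40 (interval -0.74 to -0.07, adjusted p = 0.239). Cyp4f1 differed by -0.56 (interval -1.71 to 0.59), was well above background on 1 gamma-enriched and 2 alpha arrays, and stood apart in alpha rat 3. Cyp4f4 was well above background on 1 of the 25 arrays and was not tested.

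Genes of antioxidant defence and of nuclear receptors that respond to lipids gave the same count. In the NRF2 and glutathione list 0 of 32 were called, with a median of -0.06. Of all genes well above background on all 10 arrays 0.678% were called, so a count of 0 in lists of this size says little. Nqo1, the quinone reductase that marks NRF2 activity, averaged 3.50 ± 0.28 in gamma-enriched and 3.47 ± 0.11 in alpha rats, an interval of -0.26 to 0.32. Me1, the malic enzyme that makes NADPH, differed by 0.64 (interval 0.13 to 1.15) and was not called (adjusted p = 0.22). Its other kept probe gave 0.03. In the PPAR target list 0 of 28 were called, with a median of -0.04. Pparg, the lipid-sensing nuclear receptor, did not overlap between groups and differed by 0.61 ± 0.17, short of the threshold (adjusted p = 0.0729). Ppara, its relative in fatty acid oxidation, differed by -0.32 ± 0.15 (adjusted p = 0.299).

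Cell cycle and mitosis genes all leaned upward, yet none passed the test, beside 0.678% of all genes well above background on all 10 arrays. All 26 tested members had a positive difference, with a median of 0.47 that was 0.44 to 0.46 under the other scalings and 0.24 under the slide block. Delta rats of slide 2 exceeded those of slide 1 by a median of 0.24 for the same genes. The mean over the list was 0.20, -0.13, 0.40, 0.07 and 0.04 in gamma-enriched rats, against -0.26, -0.54, -0.81, 0.33 and -0.57 in alpha rats. Alpha rat 4 lay among the gamma-enriched rats and the other 4 below them. Bub1, a spindle checkpoint kinase, differed by 0.92 ± 0.35 (adjusted p = 0.211) and Birc5, the survivin of the dividing spindle, by 0.56 ± 0.22 (adjusted p = 0.235). Mki67, the proliferation marker, differed by 0.52 ± 0.33 (adjusted p = 0.435), and by -0.44 under the block.

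Among the G1 cyclins, Ccnd1 and Ccne1 leaned the other way. Ccnd1, the cyclin that starts G1, averaged 2.14 ± 0.19 in gamma-enriched and 2.63 ± 0.14 in alpha rats, a difference of -0.49 ± 0.17 that was not called (adjusted p = 0.168). Ccne1, the cyclin of the passage into S phase, differed by -1.03 ± 0.31 (adjusted p = 0.0979). In the list of G1 to S cyclins and inhibitors 0 of 18 were called, at a median of -0.20 beside -0.11 for all genes. Of its members 12 were below 0 and 6 above, so the list did not move as a whole.

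Epithelial and inflammatory lists held no called gene, beside 0.678% of all genes well above background on all 10 arrays. At that share, lists of this size can be expected to hold few calls or none. In the squamous differentiation list 0 of 24 were called, at a median of -0.14 that was 0.01 after quantile normalization; Krt4, a keratin of the upper layers, differed by -0.40 ± 0.16 (adjusted p = 0.218). In the basal list 0 of 15 were called, and Krt5 differed by 0.26 (interval -0.05 to 0.57). Of 18 NF-kB and inflammatory targets 0 were called; Nfkbia, the inhibitor that NF-kB itself induces, differed by -0.41 ± 0.18 (adjusted p = 0.284), and Rela, the p65 subunit, by -0.04 (interval -0.50 to 0.42). Ptgs2, the inducible cyclooxygenase, was well above background on 0 arrays and was not tested. The chemokine Cxcl10 differed by -0.31 (interval -1.40 to 0.78) and Cxcl11 by -0.55 (interval -1.44 to 0.34).

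Markers of other cell types were mostly lower in gamma-enriched rats without a call, and the rats of a group differed widely. The mast cell list had the lowest median of the 40 lists, -0.80 over 10 genes with 10 below 0. Its mean per rat was -3.23, -2.40, -4.60, -1.71 and -2.14 in gamma-enriched rats, against -1.02, -1.72, -2.31, -3.64 and -1.03 in alpha rats. Gamma-enriched rat 3 and alpha rat 4 were the lowest of their groups, the medians without 1 rat ran from -1.22 to -0.33, and the blocked median was -0.07. Tpsab1, a mast cell tryptase, differed by -0.98 ± 0.54 (adjusted p = 0.38).

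Connective tissue and muscle genes followed the same uneven pattern. The fibroblast matrix list had a median of -0.54 over 16 genes, with 15 below 0 and 0 called; Sparc, a matrix glycoprotein, differed by -0.69 ± 0.24 and Col1a2, a chain of type I collagen, by -0.66 ± 0.23 (adjusted p = 0.164 and 0.166). Gamma-enriched rat 3 was lowest for this list at 0.44, against 1.40 to 2.09 in the other gamma-enriched rats. The skeletal muscle list had a median of -0.56 over 21 genes, and gamma-enriched rat 5 stood low at 0.66, against 2.44 to 2.84 in the others of its group. Tcap, a sarcomere protein, differed by -1.14 ± 0.48 (adjusted p = 0.264). The part of these cell types in the called differences was not tested.

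The medians of several immune lists changed sign under the slide block. T and NK cell genes had a median of -0.32 without the block and 0.52 with it, macrophage genes -0.36 and 0.10, and the CXCR3 axis -0.37 and 0.52, with 0 genes called in each. In delta rats the median of slide 2 minus slide 1 was -0.75, -0.46 and -0.77 for these lists. Cytosolic ribosomal proteins were below 0 in 32 of 33 genes at a median of -0.29, but the median was 0.00 after quantile normalization. Rpl35 differed by -0.55 ± 0.25 (adjusted p = 0.296), with probes ranging from -0.55 to 0.05, and Rplp0 by -0.56 ± 0.28 (adjusted p = 0.34). Over all 40 lists, 6 of 713 tested genes (0.842%) were called, beside 1.69% of all genes and 0.678% of those well above background on all 10 arrays, and 35 lists held none.

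**Figure D5:**
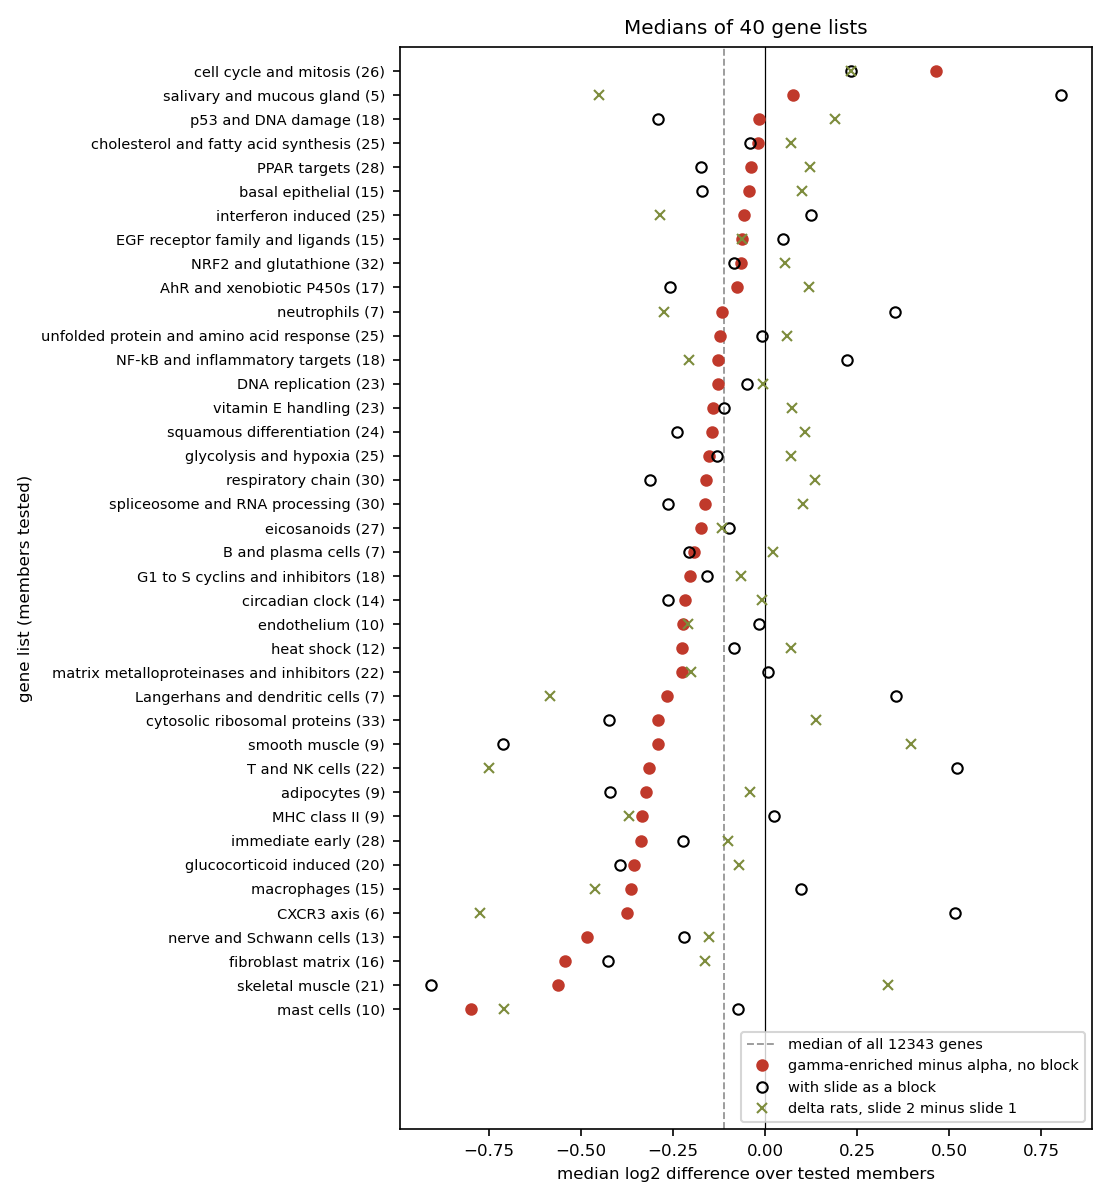
Each row is a gene list, with the number of tested members in brackets; filled circles give the median log2 difference, gamma-enriched minus alpha, open circles the median with slide as a block, and crosses the delta rats' difference, slide 2 minus slide 1 (x axis, log2). Cell cycle genes stand highest at 0.47 and mast cell genes lowest at -0.80, and the open circles of the T and NK cell, macrophage and CXCR3 lists lie above 0.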

How the data were processed

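RNA of each rat was prepared with TRIzol, amplified and labelled with Cy3, per the labels' protocols. Signal intensity per spot had been background-subtracted and detrended within each array by Agilent Feature Extraction 11.5.1.1, per the file headers (10.7 in the submitters' processing notes). A deposited table of log2 values followed these intensities with the 75th percentile near 0 and served as an alternative.

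From the scanner files, spots marked as outliers were dropped, the processed signals of replicate spots were averaged on the log2 scale, and each array was set to its 75th percentile. Of 30367 non-control probes, 18355 matched 1 RefSeq symbol through their accession and 12012 none. The names come from GRCr8, while the array design was annotated on an older build, so no gene coordinates are given beyond the printed windows. A probe was kept if well above background on at least 5 of 25 arrays, and each gene took its brightest kept probe. Of 11 named genes with several kept probes, 8 had probes of one sign. The sizes could still be far apart, as for C1h19orf47, Me1 and Lekr1. Of 15443 named genes, 12343 were tested.

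Means of all 5 groups were fitted with limma 3.58.1 in R 4.3.3 (20 residual degrees of freedom), two-sided, with Benjamini-Hochberg adjustment at 0.05. Each difference is gamma-enriched minus alpha ± the moderated standard error, n = 5 rats each, and intervals are 95%. The 5 rats a group limit the precision. The fit was tested on simulated data. Normexp used median signals, as the files hold no mean signal column.

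Genes were named by a rule: the 12 largest rises and 12 largest falls without overlap among called genes detected on all 10 arrays, the 4 largest such dim rises and falls, called members of the lists (up to 4, or up to 2 values of smallest p), and 13 genes of vitamin E handling, proliferation and inflammation always. No dim gene rose. Fkbp5, Fos, Egr3, Ciart and Dbp were named outside the rule, as were the genes marked as chosen after their values were seen. A gene that is withheld was left out. The rats, lists and rule were chosen with earlier results of these data known, and lists are described by counts and medians.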

Additional observations from a re-analysis of the deposited data

Results flagged for a closer look

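Among the named genes, 13 of 152 groups of 5 rats had a rat set apart from the other 4 by Dixon's criterion; chance alone gives about 1 in 20. Gamma-enriched rats set apart were rat 4 for Apold1 (-4.10, the others -5.37 to -5.03), rat 2 for Cd79b (-9.08, the others -7.72 to -7.32), rat 3 for Nqo1 (3.99, the others 3.35 to 3.46) and for Ccnd1 (2.48, the others 2.04 to 2.07), and rat 5 for Tcap (0.01, the others 2.44 to 2.86). Alpha rat 3 was set apart for Nr1d1 (-1.32, the others -5.98 to -5.20), Ciart (-0.15, the others -4.17 to -3.41) and Cyp4f1 (-3.39, the others -7.77 to -6.55). Alpha rat 1 was set apart for Stfa3l1 (-5.92, the others -4.22 to -3.68) and Gstm6 (-4.71, the others -2.98 to -2.59), alpha rat 4 for Ahr (-4.99, the others -5.92 to -5.66) and Bub1 (-0.11, the others -2.0 to -1.64), and alpha rat 2 for Pparg (-2.47, the others -1.85 to -1.62). Values are log2 signal minus the array's 75th percentile, and no cause was tested.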

How the results depend on the processing

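The calls depended on slide, on the dim genes and on single rats. Against 209 called genes (74 detected on all 10 arrays, 17 higher, 192 lower), normexp background correction gave 95 (44, 9 higher, 86 lower), and quantile normalization 179, with 32 higher. With only genes detected on all 10 arrays tested, 10 were called (3 higher, 7 lower), and with only the 9874 genes of higher mean level, an alternative chosen after seeing the data, 5 (2 higher, 3 lower); fewer genes enter the adjustment there. Slide as a fixed block gave 0 calls in every class (790 genes at an unadjusted p under 0.05), slide as a random block 410 (213 detected on all 10 arrays, 69 higher, 341 lower) at a consensus correlation of -0.025. Array weights gave 1317 (1016, 263 higher, 1054 lower), and array row as a block 48 detected on all 10 arrays and 10 higher. The deposited values, no filter on dim probes, probe means and the 10 arrays alone gave 209 to 248 calls. The share of calls that were lower was 91.9%, and 80.0% to 94.1% elsewhere with all genes tested.

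Leaving out 1 rat gave 24 to 650 calls, 6 to 433 among genes detected on all 10 arrays, 4 to 130 higher and 20 to 520 lower. The rat number as a replicate block gave 130 calls (46 detected on all 10 arrays, 116 lower). Same-numbered rats shared only a number, with correlations of their deviations from -0.58 to 0.04, and 0 of 5 gamma-enriched rats were closest to their own number.

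Of the named genes, none of the called ones changed sign under these alternatives. Genes with small differences did: Ttpa was -0.10 with normexp, -0.65 with the slide block and -0.09 to 0.14 without 1 rat. Nqo1 was -0.12 with normexp, -0.082 with the block, -0.007 with array weights and -0.09 to 0.071 without 1 rat. Rela was 0.31 with the block, 0.22 with weights and -0.19 to 0.21 without 1 rat. With the block, Mki67 was -0.44, Cxcl10 0.18 and Cxcl11 0.20; after quantile normalization Krt13 was 0.032. Without 1 rat, Cxcl10 ran from -0.66 to 0.16 and Cyp4f1 from -0.85 to 0.24. The causes were not tested.

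Of 920 list medians recomputed, 15 moved by more than the spread between rats, 8 of them under the slide block. Signals near background limit the 1430 dim genes, for which a fold is at best a bound that holds for the processed signal only.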
